A study of Mus musculus with 8 samples.

Results

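A set of 9 genes of fibroblast growth factor (FGF) signalling was followed in sorted skin keratinocytes: the ligand genes Fgf1, Fgf2, Fgf5, Fgf7, Fgf10 and Fgf18 and the receptor genes Fgfr1, Fgfr2 and Fgfr3. They are 9 of the 19938 genes that the array annotation names by a probe set with a single symbol, and each of the 9 had 1 such probe set. The 8 arrays held back skin keratinocytes of 8-week-old CD1 mice, males and females pooled. The K14Snail arrays came from mice carrying Snail, a zinc finger transcription factor, under the keratin 14 promoter, which is active in basal keratinocytes of epidermis and follicle. The other arrays came from wild type mice of the same strain. For each genotype there was 1 array of CD34 positive cells, 1 of CD34 negative cells, 1 of Mts24 positive cells and 1 of Mts24 negative cells, all separated with antibodies and a magnet. CD34 arrays were made from pools of 11 mice and Mts24 arrays from pools of 9 mice. The labels do not name the founder line of the transgene.

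FGF ligands bind receptor tyrosine kinases together with heparan sulphate, and the activated receptor signals through adaptor proteins to the MAP kinase cascade, which in turn induces its own inhibitors. In mouse skin, Fgf7 and Fgf10 are known as dermal papilla ligands of the epithelial form of Fgfr2, Fgf5 as the ligand that ends hair growth, and Fgf18 as a ligand of the resting follicle. CD34 is a surface antigen of the follicle bulge, where hair follicle stem cells reside, and Mts24 is carried by the product of Plet1 in the upper follicle.

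The arrays went with their labels at the genes that define them. Snai1, which encodes Snail, had log2 levels of 10.84 to 11.04 on the 4 K14Snail arrays, against 7.86 to 8.16 on the 4 wild type arrays. Cd34 was higher in CD34 positive than in CD34 negative cells by 7.24 ± 0.25 (SE) on the log2 scale (limma, adjusted p = 0.000203), and Plet1 in Mts24 positive than in Mts24 negative cells by 3.22 ± 0.22 (adjusted p = 0.00149). Cd34 was also higher in Mts24 positive than in Mts24 negative cells, by 1.57 ± 0.25 (adjusted p = 0.0107). Mts24 negative cells had Cd34 at 10.51 (K14Snail) and 10.03 (wild type), against 6.27 (K14Snail) and 6.12 (wild type) in CD34 negative cells. The sorts thus had unlike negative fractions in Cd34. Of the 11 bulge markers, 1 was called higher and 1 lower in CD34 negative than in Mts24 negative cells, beside 0.0653% of all genes. Of 11 bulge markers, 9 were higher in the CD34 positive and 8 in the Mts24 positive fraction, and of 7 upper follicle markers, 0 passed in the CD34 sort and 7 were higher in the Mts24 sort. The negative fractions carried more T cell transcripts, with 6 of 7 tested T cell markers lower in CD34 positive and 7 of 7 lower in Mts24 positive cells. The summed log2 level of the T cell list was 10.77 to 11.68 on the 4 positive arrays, against 13.21 to 14.01 on the 4 negative ones. None of the 8 endothelial markers passed the filter, nor did the fibroblast markers Lum, Dpt, Mfap5 and Pdgfra, while 6 of the 12 fibroblast and dermal papilla markers did. Of those 6, 3 were higher in CD34 positive cells, Wif1 by 3.05 ± 0.28 (SE; limma, adjusted p = 0.00139), Col1a2 by 0.95 ± 0.10 (adjusted p = 0.00235) and Fbln2 by 0.84 ± 0.12 (adjusted p = 0.00633), and 1 was lower, Rspo3 by −2.44 ± 0.22 (adjusted p = 0.00127). In the Mts24 sort Fbln2 was higher and Rspo3 lower. Of the 6 smooth muscle markers 2 were tested, and Cnn1 was higher in CD34 positive cells by 1.49 ± 0.19 (adjusted p = 0.00411). Cnn1 passed the filter only through its CD34 positive arrays, at 8.10 (K14Snail) and 7.98 (wild type). Its other arrays lay between 6.53 and 7.11, so this call is a description against a level that may be background. Of all genes tested, 12.1% were called higher and 11.6% lower in the CD34 sort, and 11.1% higher and 11.7% lower in the Mts24 sort. The K14Snail CD34 positive array stood apart in marker levels. Its summed level was the highest of the 8 for fibroblast and dermal papilla (11.73), smooth muscle (10.91) and melanocyte markers (11.83). It was the lowest for suprabasal (14.16) and sebaceous gland markers (12.38). Sums add unlogged levels, so single bright genes weigh most. Acta2 was at 10.31 there, against 7.42 on the wild type CD34 positive array, and Wif1 at 10.46 against 9.30. Col1a1, Fbln2 and Dcn were also higher there, and Rspo3 and Col3a1 lower. Myh11, Tagln, Pdgfra, Lum, Mfap5, Corin and Dpt did not pass the filter. The part of these cell type differences in the sort results was not tested. In a sorted bulk sample, fewer cells of a type and less RNA per cell cannot be told apart.

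The stretches upstream of the genes are shown because Snail binds the E-box letters CAGGTG and the genotype comparison sets cells with and without added Snail side by side. RefSeq promoter windows on GRCm38.p6, the 250 bases before each annotated start, were at hand for 7 of the 9 genes, with 8 windows in all. Fgf1 and Fgfr1 had no window. Those of Fgf18 (chr11:33147401-33147650, minus strand), Fgfr2 (chr7:130266809-130267058, minus strand) and the first start of Fgfr3 (chr5:33721474-33721723, plus strand) are given 5′ to 3′, with any E-box of the general form CANNTG in capitals.
Fgf18: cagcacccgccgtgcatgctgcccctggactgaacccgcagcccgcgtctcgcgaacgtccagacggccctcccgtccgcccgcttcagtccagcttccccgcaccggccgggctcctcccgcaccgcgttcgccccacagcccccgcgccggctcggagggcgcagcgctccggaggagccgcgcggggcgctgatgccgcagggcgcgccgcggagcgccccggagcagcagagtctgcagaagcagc
Fgfr2: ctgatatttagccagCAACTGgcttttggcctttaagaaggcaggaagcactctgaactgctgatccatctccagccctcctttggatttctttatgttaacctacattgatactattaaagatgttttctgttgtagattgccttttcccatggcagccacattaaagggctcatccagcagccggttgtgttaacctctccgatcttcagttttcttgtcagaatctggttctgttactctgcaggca
Fgfr3: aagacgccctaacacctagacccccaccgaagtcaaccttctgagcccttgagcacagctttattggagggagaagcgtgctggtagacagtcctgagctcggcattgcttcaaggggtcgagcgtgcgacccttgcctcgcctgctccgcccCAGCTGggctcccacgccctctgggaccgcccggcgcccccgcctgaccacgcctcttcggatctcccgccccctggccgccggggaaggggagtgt

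The Fgf18 window held 77.2% G or C with 37 CpG dinucleotides and no match to CANNTG, and that of Fgfr3 held 66.8% with 19 CpG and 1 match, CAGCTG. The Fgfr2 window held 44.0% with 2 CpG and 1 match, CAACTG. Over all 32851 promoter windows of the table, the median was 52.4% G or C and 6 CpG. Motifs were searched on both strands. The Snail letters CAGGTG were in 0 of the 8 windows of FGF genes, and in 17.22% of all windows. The letters CTTTGA, bound by TCF and LEF factors, were likewise in 0 of the 8, and in 13.83% of all. The palindromic form CANNTG, which includes the Snail letters, was in 4 of the 8 and in 66.22% of all windows, and the GC box letters GGGCGG were in 6 of the 8 and in 32.74% of all. A letter match describes these windows and is no measured binding site.

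Among the ligands, Fgf18 was measured well above the filter in both positive fractions, and Fgf1 in CD34 positive cells. In Mts24 positive cells Fgf1 was closer to it, at 8.26 (K14Snail) and 8.75 (wild type). The filter asked for a log2 level of at least 7.70, the median over all values of named genes, on at least 2 of the 8 arrays, and 10720 genes passed. Of the 9 FGF genes, 5 passed: Fgf1, Fgf18, Fgfr1, Fgfr2 and Fgfr3. Fgf2, Fgf5, Fgf7 and Fgf10 lay under 7.70 on every array. Levels were read within a probe set and not between genes, since probes differ in how brightly they bind.

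**Figure D1:**
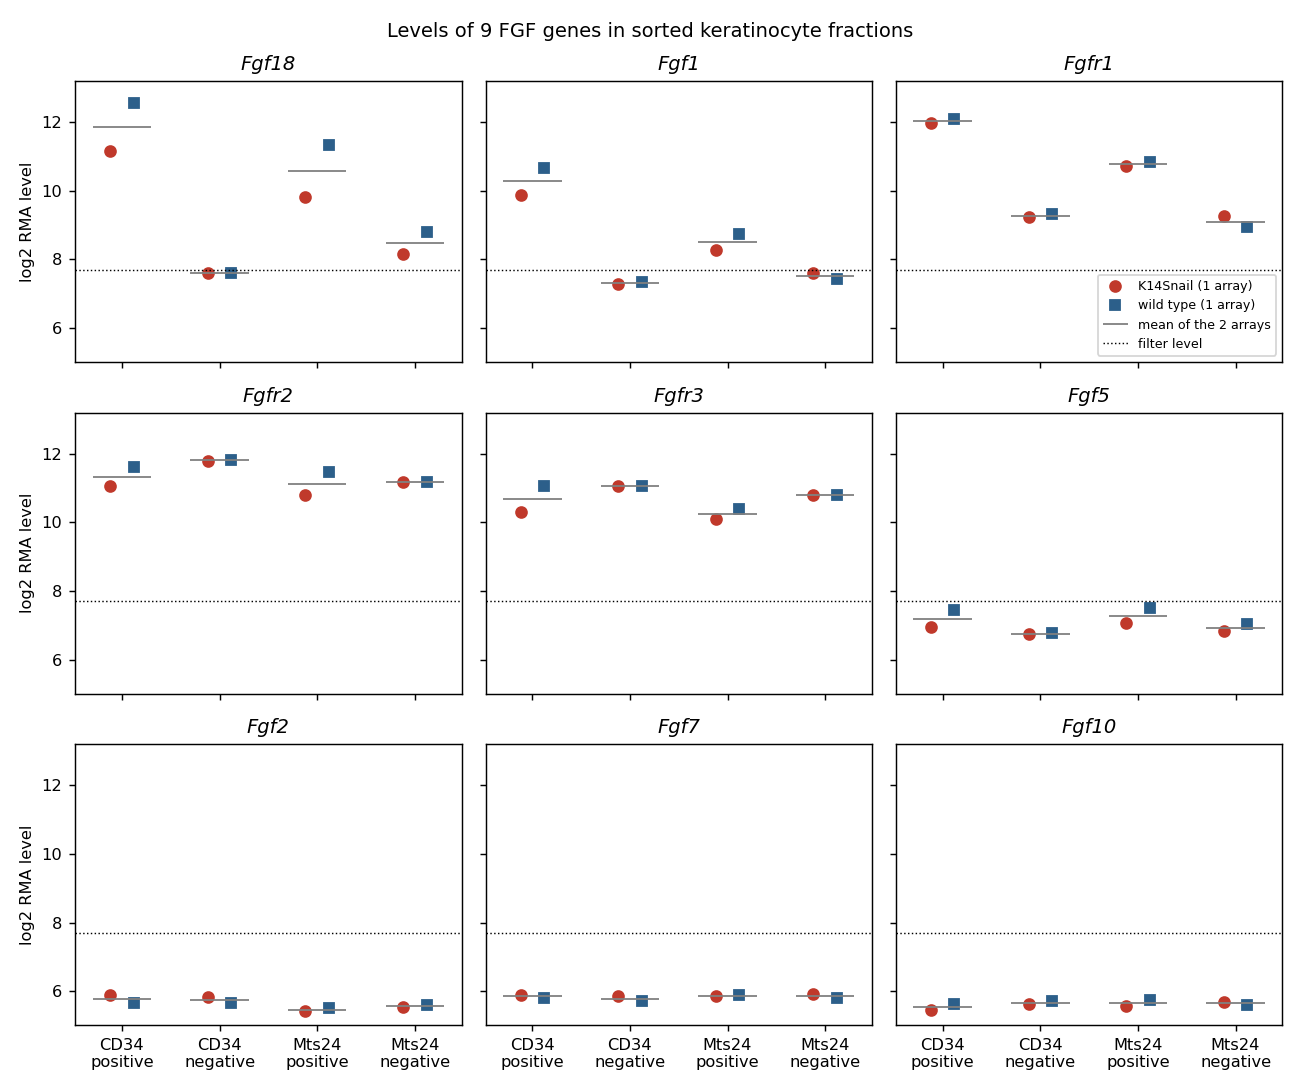
Log2 RMA level (y axis) of each of the 9 FGF genes in the 4 sorted fractions (x axis); each point is 1 array, circles K14Snail and squares wild type, bars are the mean of the 2 arrays and the dotted line is the filter level of 7.70. By the mean, Fgf18, Fgf1 and Fgfr1 stand highest in CD34 positive cells and Fgfr2 and Fgfr3 highest in CD34 negative cells. Fgf2, Fgf5, Fgf7 and Fgf10 lie under the line on all 8 arrays.

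Fgf18 had log2 levels of 11.17 (K14Snail) and 12.57 (wild type) in CD34 positive cells, against 7.60 (K14Snail) and 7.61 (wild type) in CD34 negative cells. Mts24 positive cells had 9.83 (K14Snail) and 11.32 (wild type), against 8.17 (K14Snail) and 8.81 (wild type) in Mts24 negative cells. All 4 positive arrays lay above all 4 negative ones, while the CD34 positive and Mts24 positive ranges overlapped. The difference of positive from negative cells was 4.27 ± 0.37 (SE) in the CD34 sort, or 19.3-fold (limma, adjusted p = 0.00120), and 2.09 ± 0.37 in the Mts24 sort, or 4.26-fold (adjusted p = 0.0151). Both CD34 negative arrays lay under the filter level of 7.70, so 19.3-fold is taken against a level that may be the background of the probe set, and a fold against background understates the ratio. The 2 sorts differed in this by 2.18 ± 0.52, which did not pass (adjusted p = 0.0943), although it did without both arrays of the K14Snail CD34 pool (2.87, adjusted p = 0.0191). The Mts24 call was lost without the wild type Mts24 negative array (1.99, adjusted p = 0.0849), the wild type Mts24 positive array (1.69, adjusted p = 0.0799), the K14Snail Mts24 negative array (2.19, adjusted p = 0.0768), or the wild type or K14Snail Mts24 pool (1.67 and 2.51, adjusted p = 0.225 and 0.159).

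Fgf1 encodes a ligand that binds all the FGF receptors and lacks a signal peptide. Its log2 levels were 9.89 (K14Snail) and 10.67 (wild type) in CD34 positive cells, against 7.28 (K14Snail) and 7.35 (wild type) in CD34 negative cells. The Mts24 positive cells had 8.26 (K14Snail) and 8.75 (wild type), against 7.62 (K14Snail) and 7.41 (wild type) in Mts24 negative cells. The CD34 positive arrays lay above both Mts24 positive arrays, and these above all negative arrays, with no overlap. Fgf1 rose by 2.96 ± 0.24 (SE) in the CD34 sort, or 7.77-fold (limma, adjusted p = 0.000999), and by 0.99 ± 0.24 in the Mts24 sort, or 1.99-fold (adjusted p = 0.0364). All 4 negative arrays lay under the filter level, so both folds and the difference between the sorts are taken against levels that may be the background of the probe set, and a fold against background understates the ratio. The measured enrichment was larger in the CD34 sort than in the Mts24 sort by 1.97 ± 0.34 (adjusted p = 0.0411). The Mts24 call and the call on the difference between sorts were both lost with the pool as a fixed block (adjusted p = 0.0567 and 0.0844) and with quantile normalization repeated (adjusted p = 0.0513 and 0.0553). Over the fits that left out 1 array or 1 pool, the Mts24 difference lay between 0.65 and 1.33 with adjusted p from 0.0140 to 0.308 and was called in 5 of 12, and the difference between sorts lay between 1.62 and 2.32 with adjusted p from 0.0142 to 0.338 and was called in 3 of 12. For the Mts24 difference the call was lost without either CD34 negative array (adjusted p = 0.0683 for each), the wild type Mts24 negative array (0.67, adjusted p = 0.152), the wild type or the K14Snail Mts24 positive array (0.91 and 1.07, adjusted p = 0.152 and 0.117), or either Mts24 pool. For the difference between sorts the call held without the wild type CD34 positive array, without the K14Snail CD34 positive array or without the K14Snail CD34 pool.

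The other 4 ligands gave low values that differed little between arrays. Fgf5 had log2 levels of 6.95 (K14Snail) and 7.44 (wild type) in CD34 positive cells, against 6.74 (K14Snail) and 6.76 (wild type) in CD34 negative cells. In Mts24 positive cells it had 7.05 (K14Snail) and 7.49 (wild type), against 6.82 (K14Snail) and 7.03 (wild type) in Mts24 negative cells. Each positive array was above its negative partner, but the positive and negative ranges overlapped across the sorts. In a fit with no filter, Fgf5 differed by 0.44 ± 0.14 (SE) in the CD34 sort (limma, adjusted p = 0.0884) and by 0.35 ± 0.14 in the Mts24 sort (adjusted p = 0.171), neither past the threshold. Fgf7 ranged from 5.71 to 5.90 and Fgf10 from 5.44 to 5.74 over the 8 arrays, and Fgf2, a ligand with no signal peptide, from 5.42 to 5.88. At these levels a transcript at low abundance and none at all are not distinguished by the array.

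Of the receptors, Fgfr1 was called higher in both sorts, and Fgfr2 and Fgfr3 in neither. Fgfr1 had log2 levels of 11.99 (K14Snail) and 12.09 (wild type) in CD34 positive cells, against 9.23 (K14Snail) and 9.32 (wild type) in CD34 negative cells. Its Mts24 positive levels were 10.73 (K14Snail) and 10.84 (wild type), against 9.27 (K14Snail) and 8.94 (wild type) in Mts24 negative cells. The 3 tiers, CD34 positive, Mts24 positive and both negative fractions, did not overlap, and within a positive fraction the genotypes lay 0.10 and 0.11 apart. Fgfr1 rose by 2.77 ± 0.14 (SE) in the CD34 sort, or 6.80-fold (limma, adjusted p = 0.000308), and by 1.68 ± 0.14 in the Mts24 sort, or 3.20-fold (adjusted p = 0.00249). The CD34 enrichment exceeded the Mts24 enrichment by 1.09 ± 0.20 (adjusted p = 0.0482). That last call sat at the threshold and was lost with the pool as a fixed block (adjusted p = 0.0784), with no filter (adjusted p = 0.0504), with arrays centred on their medians (adjusted p = 0.0504) and in 10 of the 12 fits that left out 1 array or 1 pool, where the difference lay between 0.86 and 1.31 with adjusted p from 0.0432 to 0.259. It held there without the K14Snail CD34 positive array and without the wild type Mts24 negative array. The Mts24 call was lost without both arrays of the wild type Mts24 pool (1.45, adjusted p = 0.0992) or of the K14Snail Mts24 pool (1.90, adjusted p = 0.103).

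Fgfr2, the receptor whose epithelial form binds Fgf7 and Fgf10, had log2 levels of 11.05 (K14Snail) and 11.60 (wild type) in CD34 positive cells, against 11.79 (K14Snail) and 11.83 (wild type) in CD34 negative cells. Its Mts24 positive levels were 10.80 (K14Snail) and 11.46 (wild type), against 11.18 (K14Snail) and 11.17 (wild type) in Mts24 negative cells. Both CD34 positive arrays were below both CD34 negative ones, the Mts24 ranges overlapped, and the genotypes lay further apart in the positive fractions than in the negative ones. The differences were −0.48 ± 0.19 (SE; 95% interval −0.96 to −0.0033; adjusted p = 0.134) in the CD34 sort and −0.05 ± 0.19 (−0.52 to 0.43; adjusted p = 0.889) in the Mts24 sort, by limma. The deposited probe set does not tell the epithelial from the mesenchymal splice form.

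Fgfr3, a receptor expressed in epidermis and known for mutations in benign skin growths in humans, had log2 levels of 10.31 (K14Snail) and 11.07 (wild type) in CD34 positive cells, against 11.05 (K14Snail) and 11.05 (wild type) in CD34 negative cells. In Mts24 positive cells it had 10.11 (K14Snail) and 10.40 (wild type), against 10.81 (K14Snail) and 10.79 (wild type) in Mts24 negative cells. Both Mts24 positive arrays were below both Mts24 negative ones, while in the CD34 sort the K14Snail positive array was the low one. The differences were −0.36 ± 0.21 (SE; 95% interval −0.87 to 0.15; limma, adjusted p = 0.274) in the CD34 sort and −0.55 ± 0.21 (−1.06 to −0.04; adjusted p = 0.114) in the Mts24 sort, neither past the threshold. Without the K14Snail CD34 positive array, which stood apart in its markers, the CD34 difference was −0.04 (adjusted p = 0.893) and the Mts24 difference passed at −0.55 (adjusted p = 0.0242). The Mts24 difference passed at that adjusted p without the wild type CD34 positive array too, and at 0.0301 without either CD34 pool, and the CD34 difference passed without the wild type CD34 positive array (−0.68, adjusted p = 0.0284) or its pool (−0.74, adjusted p = 0.0453).

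**Figure D2:**
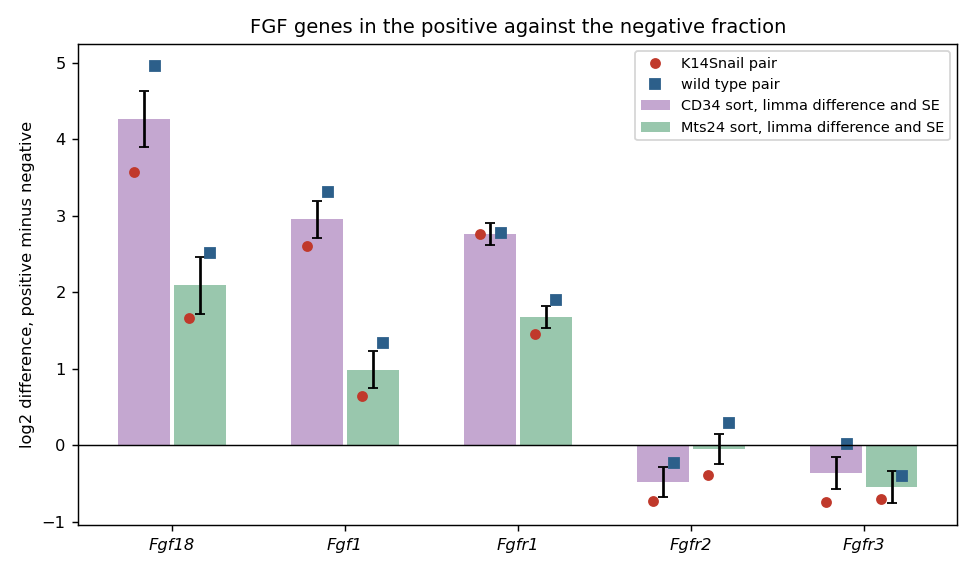
Log2 difference of positive from negative cells (y axis) for the 5 FGF genes that passed the filter (x axis); bars are the limma difference with its SE in the CD34 and Mts24 sorts, and points are the single K14Snail and wild type pairs. Fgf18, Fgf1 and Fgfr1 are above 0 in both pairs of both sorts, at 3.57 (K14Snail) and 4.96 (wild type) for Fgf18 in the CD34 sort, and Fgfr2 and Fgfr3 lie between −0.74 and 0.29.

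Counted together, 3 of the 5 FGF genes tested were higher in CD34 positive cells, beside 12.1% of all genes tested, and 0 were lower (11.6% of all). The same count stood in the Mts24 sort, 3 higher beside 11.1% of all genes and 0 lower beside 11.7%. The enrichment differed between the sorts for 2 of 5, beside 4.08% of all. The median difference of the 5 was 2.77 in the CD34 sort and 0.99 in the Mts24 sort, against −0.03 and 0.02 over all 10720 genes. Fgf1 passed the filter only through its positive arrays, so these counts are a description and no test of the family. Without the K14Snail CD34 positive array, the CD34 differences were 4.52 for Fgf18, 3.28 for Fgf1 and 2.85 for Fgfr1 (limma, adjusted p = 0.00319, 0.00125 and 0.00120).

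Fgf18, Fgf1 and Fgfr1 had their highest mean level in CD34 positive cells and the next in Mts24 positive cells, with no order called between the negative fractions. CD34 and Mts24 cells came from different pools of mice. Comparisons of a CD34 with an Mts24 fraction thus cannot tell a fraction difference from one between pools. Mts24 positive cells had the lowest mean of Fgfr2 and Fgfr3 and CD34 negative cells the highest. A difference between any of the 4 fractions was called for Fgfr1, Fgf1 and Fgf18 (limma F test, adjusted p = 0.000560, 0.00195 and 0.00237), beside 36.2% of all genes, and missed the threshold for Fgfr2 and Fgfr3 (adjusted p = 0.0690 and 0.0757). CD34 positive exceeded Mts24 positive cells for Fgf1 by 1.77 ± 0.22 (SE; limma, adjusted p = 0.00797) and for Fgfr1 by 1.26 ± 0.13 (adjusted p = 0.00517), which makes 2 of 5 beside 8.99% of all genes, and by 1.29 ± 0.34 for Fgf18, which did not pass (adjusted p = 0.0611). The Fgf1 call was lost without the wild type or the K14Snail Mts24 positive array (adjusted p = 0.0525 and 0.0736), and the Fgf1 and Fgfr1 calls without either Mts24 pool (adjusted p from 0.101 to 0.131). The Fgf18 difference passed without either CD34 negative array (adjusted p = 0.0378 for each) or without the K14Snail CD34 pool (1.46, adjusted p = 0.0310).

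At the low end, none of the 5 genes passed the threshold between CD34 negative and Mts24 negative cells, by limma. Like those above, the comparisons here set CD34 against Mts24 cells and so lie between pools. The Fgf18 difference there was −0.88 ± 0.34 (SE; 95% interval −1.73 to −0.04; adjusted p = 0.231), with the Mts24 negative arrays higher, and the Fgfr2 difference was 0.63 ± 0.18 (SE; 95% interval 0.19 to 1.07; adjusted p = 0.167), with the CD34 negative arrays higher. Of all genes, 0.0653% were called in that comparison. Mts24 positive cells exceeded CD34 negative cells for Fgf18 by 2.97 ± 0.34, for Fgfr1 by 1.51 ± 0.13 and for Fgf1 by 1.19 ± 0.22 (adjusted p = 0.00772, 0.00400 and 0.0263), 3 of 5 beside 5.91% of all genes. With arrays left out, the Fgf18 call was lost without the wild type Mts24 positive array (adjusted p = 0.0577) or either Mts24 pool (0.157 and 0.137), the Fgfr1 call without the K14Snail CD34 negative array (0.0508) or either Mts24 pool (0.125 and 0.123), and the Fgf1 call without a CD34 negative array (0.157 and 0.131), a Mts24 positive array (0.140 and 0.112) or a Mts24 pool (0.179 and 0.171). Fgfr3 was lower by −0.80 ± 0.19 (adjusted p = 0.0471), 1 of 5 beside 8% of all genes, and this call was lost in 4 of 9 other settings, no pool block (adjusted p = 0.0556), a pool correlation of 0.3 (0.0948), no filter (0.0568) and repeated quantile normalization (0.0571), and in 9 of 12 fits that left out an array or a pool, between −0.92 and −0.68 with adjusted p from 0.0101 to 0.261. CD34 positive cells exceeded Mts24 negative cells for the same 3 genes, Fgf18 by 3.38, Fgfr1 by 2.94 and Fgf1 by 2.76 (adjusted p = 0.00106, 0.000181 and 0.000597), beside 22.4% of all genes.

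Across the 8 arrays, Fgf18, Fgf1 and Fgfr1 ran together and Fgfr2 and Fgfr3 ran together. Pearson's r was 0.96 between Fgf1 and Fgfr1, 0.94 between Fgf1 and Fgf18, 0.92 between Fgf18 and Fgfr1 and 0.81 between Fgfr2 and Fgfr3, as a description over 8 arrays that share genotypes, pools and sorts. The genes nearest to Fgf1 in this measure were Adamtsl4 (0.997), Sdk2 (0.996) and Peg3 (0.994). Nearest to Fgf18 were Slc45a3 (0.986), Depp1 (0.985) and Bmp6 (0.981), a ligand of the BMP pathway. Nearest to Fgfr1 were Rflnb (0.998), Tcf12 (0.996), a basic helix-loop-helix factor, and Pdzrn3 (0.996). Nearest to Fgfr2 were Cpne2 (0.971), Scaf4 (0.928) and Zcchc14 (0.925), and nearest to Fgfr3 were Capns2 (0.981), Fbxo31 (0.956) and Ltb4r1 (0.947).

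In K14Snail against wild type cells, none of the 5 FGF genes passed, while 2.05% of all genes did. Those 220 genes became 41 with no pool block, 4 with a pool correlation of 0.3 and 0 to 75 with an array or pool left out. Each pool held a single genotype, so the genotype comparison lies between pools. The negative pool correlation of the fit (−0.175) makes its SE smaller than independent arrays would. Fgf18 had the largest difference of the 5, −0.89 ± 0.22 (SE; 95% interval −1.43 to −0.35; limma, adjusted p = 0.0951, unadjusted p = 0.00721). It was lower on the K14Snail array in all 4 fractions, with −1.40 (CD34 positive), −1.49 (Mts24 positive), −0.02 (CD34 negative) and −0.64 (Mts24 negative), with 1 array of each genotype per fraction. The other differences were −0.31 ± 0.11 for Fgfr2 (adjusted p = 0.169), −0.28 ± 0.14 for Fgf1 (adjusted p = 0.264), −0.26 ± 0.12 for Fgfr3 (adjusted p = 0.239) and 0.01 ± 0.08 for Fgfr1 (95% interval −0.20 to 0.22; adjusted p = 0.957). The sign for Fgfr1 turned with quantile normalization repeated (−0.01) and without either Mts24 negative array (−0.10) or Mts24 pool (−0.09).

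Past a 2-fold difference between single arrays lay 1 of the 5 genes, Fgf18, in CD34 positive cells (2.65-fold lower in K14Snail) and in Mts24 positive cells (2.81-fold lower in K14Snail). Of all genes, 2.15% were at least 2-fold lower on the K14Snail array of CD34 positive cells and 0.578% on that of Mts24 positive cells. In the negative fractions 0 of the 5 were past 2-fold, beside 0.858% of all genes for CD34 negative cells and 0.737% for Mts24 negative cells. Fgf1, Fgfr2 and Fgfr3 were also lower on the K14Snail array in both positive fractions, by −0.78, −0.55 and −0.76 for CD34 positive cells and by −0.49, −0.67 and −0.29 for Mts24 positive cells. Their differences in negative fractions lay between −0.07 and 0.20, where the Fgf1 arrays of both genotypes were under the filter level. Fgfr1 differed by −0.10 and −0.11 in the positive fractions and by −0.09 (CD34) and 0.34 (Mts24) in the negative ones.

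**Figure D3:**
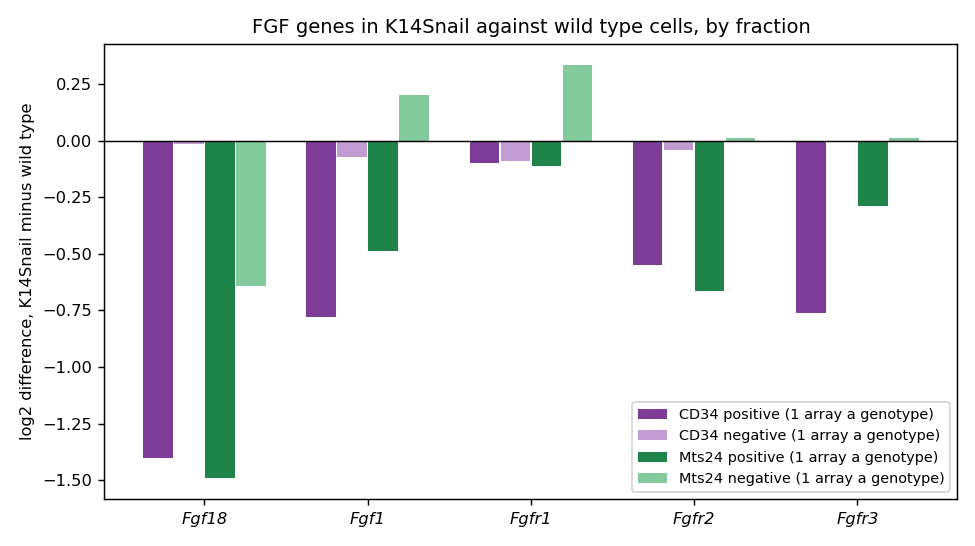
Log2 difference of K14Snail from wild type (y axis) for the 5 tested FGF genes (x axis) in each sorted fraction, each bar 1 K14Snail array against 1 wild type array, so without an error bar. The Fgf18 bars of the positive fractions reach −1.40 and −1.49, and the bars of Fgfr1 lie between −0.11 and 0.34.

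The genotype difference was set against the fraction by an interaction, the K14Snail difference in positive cells minus that in negative cells. It was negative for all 5 genes: −1.12 ± 0.26 (SE) for Fgf18, −0.70 ± 0.19 for Fgf1, −0.59 ± 0.13 for Fgfr2, −0.53 ± 0.21 for Fgfr3 and −0.23 ± 0.19 for Fgfr1. None passed (limma, adjusted p = 0.374, 0.453, 0.348, 0.631 and 0.855). Of all genes, 0 were called by limma, with 845 at an unadjusted p under 0.05 and a smallest adjusted p of 0.118. The Fgf1 arrays of the negative fractions and the Fgf18 arrays of CD34 negative cells lay under the filter level. A genotype difference there may be hidden by the background of the probe set. For Fgf1 and Fgf18 the interaction thus cannot tell a smaller genotype difference in negative cells from an unmeasured one. Without either Mts24 positive array, the interaction passed for Fgf1 (−0.87, adjusted p = 0.0406) and Fgfr3 (−0.77, adjusted p = 0.0379). Markers of other cells in the positive fractions stood as follows, and their part was not tested. Summed myeloid and Langerhans cell markers were at 13.43 and 13.68 on the K14Snail positive arrays, against 12.38 and 12.52 on the wild type positive arrays, with 0 of 9 tested markers called between the genotypes. Of these, Cd207, which marks Langerhans cells, was at 7.79 (CD34 positive) and 7.78 (Mts24 positive) on the K14Snail arrays, against 7.01 (CD34 positive) and 6.40 (Mts24 positive) on the wild type arrays. Suprabasal markers had a negative interaction for 5 of 5 tested, with a median of −0.65 and 0 called, and myeloid and Langerhans cell markers a positive one for 9 of 9, with a median of 1.72 and 0 called, against a median of 0.04 over all genes. Sebaceous gland markers were at a lower value in K14Snail cells for 7 of 7 tested, with a median of −1.28 and 0 called. Acta2, a smooth muscle gene, was at 10.31 (CD34 positive) and 9.38 (Mts24 positive) on the K14Snail arrays, against 7.42 (CD34 positive) and 8.07 (Mts24 positive) on the wild type arrays. Cnn1, the other tested smooth muscle marker, did not follow it. Its levels were 8.10 (CD34 positive) and 6.56 (Mts24 positive) on the K14Snail arrays, against 7.98 (CD34 positive) and 7.11 (Mts24 positive) on the wild type arrays. Dcn, a fibroblast gene under the filter, was at 7.64 (CD34 positive) and 7.54 (Mts24 positive) on the K14Snail arrays, against 6.37 (CD34 positive) and 6.64 (Mts24 positive) on the wild type arrays. Of the 6 tested fibroblast and dermal papilla markers, 3 had a positive interaction, with a median of 0.04 and 0 called. Cd34 itself was at 13.29 (K14Snail) and 13.57 (wild type) in CD34 positive cells, and at 11.56 (K14Snail) and 12.12 (wild type) in Mts24 positive cells. Without the K14Snail CD34 positive array, the Fgf18 genotype difference was −0.76 (adjusted p = 0.220).

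Other genes of the pathway were taken from lists by role. Of 16 other FGF ligands, 3 passed the filter, Fgf8, Fgf11 and Fgf22. None passed the test in the CD34 sort, the Mts24 sort or between the genotypes. Of all genes tested, 12.1% were called higher and 11.6% lower in the CD34 sort. The shares were 11.1% and 11.7% in the Mts24 sort, and 2.05% were called between the genotypes. With so few ligands tested, this count is a description. Of 6 other receptors and binding proteins, 2 were tested, and 1 was higher in CD34 positive cells, beside 12.1% of all genes. This was Fgfrl1, a receptor that lacks the kinase domain, which rose by 0.73 ± 0.12 (SE; limma, adjusted p = 0.00816), with log2 levels of 8.42 (K14Snail) and 8.50 (wild type) in CD34 positive cells, against 7.70 (K14Snail) and 7.76 (wild type) in CD34 negative cells. Its call was lost without the wild type CD34 negative array (0.68, adjusted p = 0.0647) or without either CD34 pool (adjusted p = 0.0551 and 0.0553). The Mts24 difference of Fgfrl1 was 0.13 ± 0.12 (adjusted p = 0.476).

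Among adaptors and heparan sulphate cofactors, 15 of 17 listed genes were on the array with a single symbol and all 15 were tested. In the CD34 sort 4 were higher and 2 lower, and in the Mts24 sort 1 was higher and 2 lower, beside 12.1% higher and 11.6% lower of all genes in the CD34 sort and 11.1% higher and 11.7% lower in the Mts24 sort. With an array or pool left out, the calls ranged from 1 to 6 in the CD34 sort and from 0 to 3 in the Mts24 sort. The median difference was 0.10 and 0.07, against −0.03 and 0.02 over all genes. Gpc4, a cell surface heparan sulphate proteoglycan, rose by 0.69 ± 0.15 (SE) in the CD34 sort (limma, adjusted p = 0.0246) and by 1.55 ± 0.15 in the Mts24 sort (adjusted p = 0.00336). Its levels were 11.56 (K14Snail) and 11.06 (wild type) in CD34 positive cells, against 10.73 (K14Snail) and 10.51 (wild type) in CD34 negative cells, and 11.28 (K14Snail) and 11.34 (wild type) in Mts24 positive cells, against 9.85 (K14Snail) and 9.66 (wild type) in Mts24 negative cells. The CD34 call of Gpc4 was lost without either CD34 negative array (adjusted p = 0.132 and 0.103), the K14Snail CD34 positive array (0.49, adjusted p = 0.0718), the K14Snail CD34 pool (0.56, adjusted p = 0.0871) or either Mts24 pool (adjusted p = 0.0532 for each), and its Mts24 call without either Mts24 pool (adjusted p = 0.104 and 0.103).

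Flrt2, a transmembrane protein with leucine-rich repeats that can bind FGF receptors, moved in opposite directions in the sorts. Its log2 levels were 10.15 (K14Snail) and 10.96 (wild type) in CD34 positive cells, against 9.41 (K14Snail) and 10.10 (wild type) in CD34 negative cells. Mts24 positive cells had 9.26 (K14Snail) and 9.83 (wild type), against 9.90 (K14Snail) and 10.49 (wild type) in Mts24 negative cells. In each fraction the K14Snail array was the lower one. Flrt2 rose by 0.80 ± 0.10 (SE) in the CD34 sort (limma, adjusted p = 0.00437), fell by 0.65 ± 0.10 in the Mts24 sort (adjusted p = 0.0112), and the sorts differed by 1.45 ± 0.15 (adjusted p = 0.0113). It fell by 0.67 ± 0.06 in K14Snail cells (adjusted p = 0.0183), and no other tested gene of the 5 pathway lists passed between the genotypes. This genotype difference lies between pools, and its SE is made smaller by the negative pool correlation. The call was lost in 10 of 12 fits that left out an array or a pool (from −0.75 to −0.58, adjusted p from 0.0383 to 0.266) and with the pool correlation set to 0.3 (adjusted p = 0.0971). That genotype call held without the wild type CD34 positive or the K14Snail CD34 positive array. The Mts24 call was lost without the wild type Mts24 negative array (adjusted p = 0.0527), the wild type Mts24 positive array (0.0603), the K14Snail Mts24 negative array (0.0829) or either Mts24 pool (0.142 and 0.145), and the difference between sorts was called in 6 of those 12 fits.

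Feedback inhibitors restrain signalling downstream of the receptors, and 8 of the 12 listed were tested. In the CD34 sort 2 were higher and 0 lower, beside 12.1% higher and 11.6% lower of all genes. They were Spred1, which rose by 0.60 ± 0.13 (SE; limma, adjusted p = 0.0226), and Il17rd, which rose by 0.64 ± 0.16 (adjusted p = 0.0389) but by 0.43 (adjusted p = 0.0611) with both of its probe sets averaged. The Il17rd call was also lost with a fixed pool block (adjusted p = 0.0703) and repeated quantile normalization (0.0600), and held in 6 of 12 fits that left out an array or a pool. In the Mts24 sort 3 were higher and 2 lower, beside 11.1% higher and 11.7% lower of all genes. The kinase phosphatase genes Dusp6 and Dusp5 rose by 0.84 ± 0.23 (adjusted p = 0.0496) and 0.62 ± 0.11 (adjusted p = 0.0137), and Spred1 by 0.60 ± 0.13 (adjusted p = 0.0250). The Sprouty gene Spry1 fell by 0.98 ± 0.19 (adjusted p = 0.0194), as did Spry2, named because it completes the count, by 0.43 ± 0.10 (adjusted p = 0.0341). The median difference of the 8 was 0.05 in the CD34 sort and 0.34 in the Mts24 sort.

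Dusp6 had log2 levels of 10.45 (K14Snail) and 9.38 (wild type) in CD34 positive cells, against 9.46 (K14Snail) and 9.12 (wild type) in CD34 negative cells, and 10.49 (K14Snail) and 9.96 (wild type) in Mts24 positive cells, against 9.44 (K14Snail) and 9.31 (wild type) in Mts24 negative cells. The K14Snail positive arrays were the highest. Spry1 had 9.92 (K14Snail) and 10.62 (wild type) in CD34 positive cells, against 10.70 (K14Snail) and 10.73 (wild type) in CD34 negative cells, and 9.81 (K14Snail) and 10.46 (wild type) in Mts24 positive cells, against 11.03 (K14Snail) and 11.21 (wild type) in Mts24 negative cells. On the K14Snail arrays the positive fractions were the lowest. Dusp5 differed between the sorts by −0.98 ± 0.15 (SE; limma, adjusted p = 0.0304), a call lost with a fixed pool block (adjusted p = 0.0665) and in 9 of 12 fits that left out an array or a pool (from −1.13 to −0.82, adjusted p from 0.0385 to 0.338). Without the K14Snail CD34 positive array, 0 inhibitors were called in the CD34 sort, with Spred1 at 0.45 (adjusted p = 0.0779) and Il17rd at 0.66 (adjusted p = 0.100), and the 5 calls of the Mts24 sort stood at 5. Between left-out arrays and pools, the number of inhibitors called ranged from 0 to 2 in the CD34 sort and from 0 to 5 in the Mts24 sort. The Dusp6 call held in 5 of 10 other settings (adjusted p up to 0.0593) and in 4 of the 12 left-out fits (from 0.57 to 1.12, adjusted p up to 0.349).

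Of the transcription factors and cell cycle genes induced by FGF signalling, 6 of 7 were tested. In the CD34 sort 1 was higher and 1 lower by limma, beside 12.1% and 11.6% of all genes. In the Mts24 sort none passed, beside 11.1% higher and 11.7% lower of all genes. The CD34 count of 2 ranged from 1 to 3 over other settings and from 0 to 2 with an array or pool left out, and the Mts24 count from 0 to 2 over other settings. Fos, an immediate early gene, had log2 levels of 10.84 (K14Snail) and 10.33 (wild type) in CD34 positive cells, against 12.20 (K14Snail) and 11.55 (wild type) in CD34 negative cells, while the 4 Mts24 arrays lay between 12.53 and 12.81. It fell by 1.29 ± 0.27 (SE; adjusted p = 0.0215) in the CD34 sort, a call lost without the wild type CD34 positive array (−1.03, adjusted p = 0.0746) or the K14Snail CD34 negative array (−0.95, adjusted p = 0.109). The gene that was higher was Etv4, named because it completes the count, by 0.51 ± 0.14 (adjusted p = 0.0488). Its levels were 7.97 (K14Snail) and 7.805 (wild type) in CD34 positive cells, against 7.36 (K14Snail) and 7.39 (wild type) in CD34 negative cells. All its negative arrays lay under 7.70, so Etv4 passed the filter only through positive arrays. Its call is a description against a level that may be background. The median of the 6 was 0.09 in the CD34 sort and 0.15 in the Mts24 sort.

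**Figure D4:**
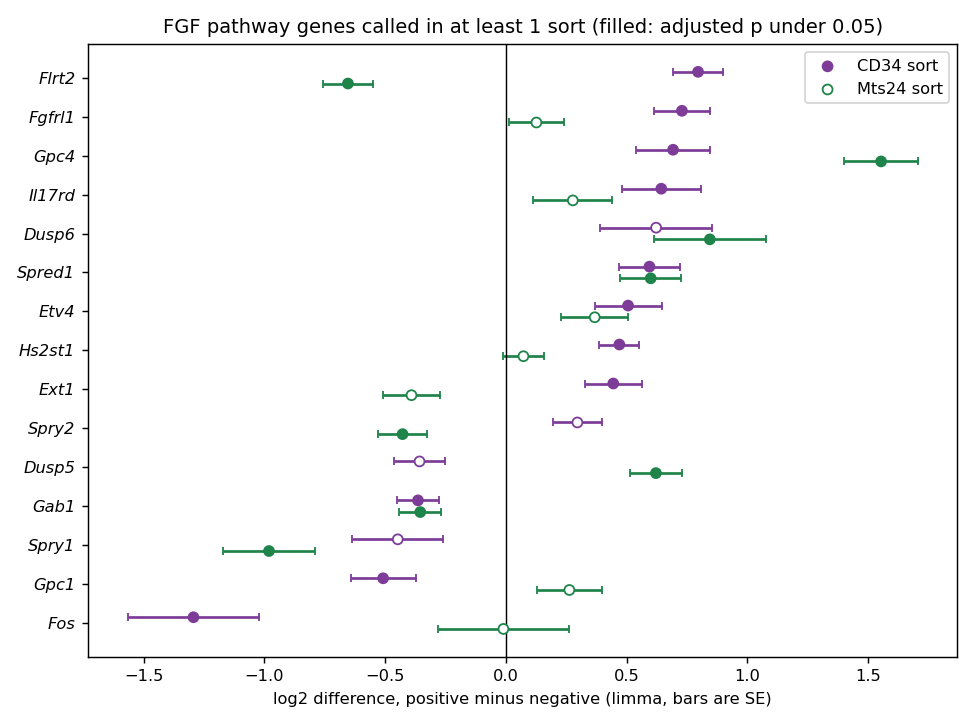
Log2 difference of positive from negative cells (x axis, with SE) for the 15 genes of the other FGF lists called in at least 1 sort (y axis), filled where adjusted p was under 0.05 by limma, with the CD34 sort above the Mts24 sort for each gene. Gpc4 lies furthest to the right at 1.55 in the Mts24 sort, Fos furthest to the left at −1.29 in the CD34 sort, and Flrt2 lies on opposite sides in the 2 sorts.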

How the data were processed

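The authors deposited 1 table of log2 values per probe set, made with RMA per the submitters' processing notes; the RMA version and the genome build are not given in the sources used here. RMA is a method of background correction, between-array normalization and probe summary. Values lay between 3.04 and 14.49, the range of a log2 scale, with array medians of 7.32 to 7.42 and 0 identical pairs of arrays. Arrays have no read depth, and here their number limits the precision, since each group had 1 array. Nothing in the labels gives repeat cultures or animals within a group, so p-values measure only the spread between these arrays. In the fit of fractions and genotype, the K14Snail and wild type arrays of a fraction stood in as repeats of each other. The SEs and p-values of the sorts and of genotype thus include any genotype difference that changes between fractions. They hold no separate measure of the spread between repeats.

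The platform annotation gives 21789 of 28874 probe sets 1 symbol, 1621 several and 5464 none; 21698 matched a RefSeq gene by Entrez identifier and 0 symbols changed. Each gene was read at its one-symbol probe set with the highest mean over the 8 arrays. Genes reaching 7.70 on at least 2 arrays were tested with limma 3.58.1 in R 4.3.3, in a fit of the 4 fractions and genotype with the pool as a random block (correlation −0.175, 3 residual and 2.78 prior degrees of freedom) and Benjamini-Hochberg adjustment over the 10720 genes at 0.05. That the positive and negative arrays of a genotype and marker share a pool was inferred from equal pool sizes. For a given spread, the negative correlation makes the SE of genotype smaller than for independent arrays, and the SE of each sort larger. The interaction used a fit with 1 more term and 2 residual degrees of freedom. The steps were tested on simulated data.

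The FGF genes and all gene lists were chosen with earlier results of these data known. The text names the 9 FGF genes, at most 6 called genes of the other FGF lists per comparison with the largest differences, the 3 genes with the highest Pearson r to each tested FGF gene, the label genes, and list markers beside a result; Spry2 and Etv4 were chosen after their values were seen. Promoter windows came from RefSeq. Alternatives were the pool block (none, fixed, or a correlation of 0.3), the filter (none, or on the mean), centring, repeated quantile normalization, a trended or robust prior, averaged probe sets, and leaving out each array or pool.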

Additional observations from a re-analysis of the deposited data

Results flagged for a closer look

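The enrichment in positive over negative cells was tested for a difference between the CD34 and Mts24 sorts, and 4 named genes passed by limma. Fgf1 differed by 1.97 ± 0.34 (SE; adjusted p = 0.0411), with an enrichment of 2.96 in the CD34 sort and 0.99 in the Mts24 sort. Fgfr1 differed by 1.09 ± 0.20 (adjusted p = 0.0482), with 2.77 in the CD34 sort and 1.68 in the Mts24 sort. Flrt2 differed by 1.45 ± 0.15 (adjusted p = 0.0113), with 0.80 in the CD34 sort and −0.65 in the Mts24 sort. Dusp5 differed by −0.98 ± 0.15 (adjusted p = 0.0304), with −0.36 in the CD34 sort and 0.62 in the Mts24 sort. With an array or pool left out, the calls held in 3 (Fgf1), 2 (Fgfr1), 6 (Flrt2) and 3 (Dusp5) of 12 fits. Over 10 other settings they held in 8 (Fgf1), 7 (Fgfr1), 10 (Flrt2) and 9 (Dusp5). All negative arrays of Fgf1 lay under the filter level, so its difference may be taken against background.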

How the results depend on the processing

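The labels give no replicate numbers shared by different samples, so no fit used them; the pool, which pairs positive with negative arrays, was a random block, and a fixed block as an alternative. The CD34 calls of Fgf18, Fgf1 and Fgfr1 held under all 10 other settings and in all 12 fits that left out an array or a pool. Over 25 results of the 5 tested FGF genes (the 2 sorts, their difference, genotype and interaction), the other settings gave 245 values, of which 236 kept direction and side of the threshold, 7 lost the call and 2 changed sign. Those that changed sign came with repeated quantile normalization, Fgfr1 between genotypes (−0.0086) and Fgfr2 in the Mts24 sort (0.013). The 280 values with an array or pool left out held in 225, lost the call in 33, gained one in 11 and changed sign in 11. The cause was not tested.

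Genes called between genotypes were 220, 41 with no pool block and 4 with the pool correlation at 0.3. The interaction gave 0 and 8 at a correlation of 0.3, and the difference between sorts 437 and 232 with a fixed pool block. With an array or pool left out, calls ranged from 1154 to 2280 for the CD34 sort (2542 with all arrays), 0 to 2897 for the Mts24 sort (2448), 0 to 830 for the difference between sorts, 0 to 75 for genotype, 0 to 651 for the interaction and 338 to 3512 for any fraction (3884). Other settings gave 905 to 1559 for Mts24 positive minus CD34 negative (1492) and 0 to 20 for the negative fractions (7).

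Signs turned within these left-out ranges: Fgf1 −0.52 to 0.12 and Fgfr1 −0.046 to 0.39 in CD34 negative minus Mts24 negative cells, Fgfr1 −0.10 to 0.11 between genotypes, Fgfr2 −0.036 to 0.33 and Fgfr3 −0.43 to 0.21 in CD34 positive minus Mts24 negative cells, Fgfr2 −0.016 to 0.40 in CD34 positive minus Mts24 positive cells, Fgfr2 −0.38 to 0.29 in the Mts24 sort, and Fgfr3 −0.74 to 0.017 in the CD34 sort and −0.19 to 0.57 in the difference between sorts. The interaction without a pool had no residual degrees of freedom. A fixed pool block was not run for genotype, the F test or comparisons of a CD34 with an Mts24 fraction, which lie between pools. Left-out fits kept the pool correlation of all arrays, and a lone array was assumed to vary like the others. Leaving out either array of a fraction, or either pool of a marker, left the same residual spread. The left-out fits thus come in pairs and are not all separate checks.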

Other observations

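Fgf13, which encodes an intracellular FGF family protein that acts on sodium channels, did not pass the filter and was not tested; it was chosen after its values were seen. Its log2 levels were 6.07 (K14Snail) and 6.42 (wild type) in CD34 positive cells, against 7.15 (K14Snail) and 7.72 (wild type) in CD34 negative cells. In Mts24 positive cells they were 6.16 (K14Snail) and 6.93 (wild type), against 6.98 (K14Snail) and 6.74 (wild type) in Mts24 negative cells.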
